A study of Mus musculus with 6 samples.

Results

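BAFF and APRIL are cytokines of the tumour necrosis factor family that keep B cells and antibody-forming cells alive. They were described here with their receptors as 4 genes chosen by name, Tnfsf13b (BAFF), Tnfsf13 (APRIL), Tnfrsf13b (the receptor TACI) and Tnfrsf13c (the receptor BAFF-R). Each name had 1 locus among the 44794 loci with a gene name. Spleen RNA was sequenced from imiquimod-treated mice of both genotypes. In 3 samples the mice were Sle1b.IFNγR-/-, which carry the lupus susceptibility interval Sle1b and lack the interferon-γ receptor. The other 3 samples came from B6.Sle1b mice, the autoimmune-prone controls, which carry the interval and have the receptor. Every mouse had received imiquimod, which activates the endosomal RNA receptor TLR7, over 4 weeks with 3 doses in each week, so that no untreated or Sle1b-free spleen enters the comparison. The labels name neither the disrupted receptor chain nor the age of the mice, and they do not say that each sample is a separate mouse, so a p-value here reflects sample-to-sample spread, which may be technical.

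BAFF and APRIL are released mainly by monocytes, macrophages, dendritic cells, neutrophils and stromal cells, and BAFF is needed for the survival of follicular and marginal zone B cells. BAFF-R binds BAFF alone, whereas TACI and BCMA (Tnfrsf17) bind both ligands. BAFF-R signals through TRAF3 and the kinase NIK to the noncanonical arm of NF-κB, TACI is abundant on marginal zone and activated B cells, and BCMA marks antibody-forming cells. Excess BAFF in mice gives lupus-like autoimmunity, and interferons can induce Tnfsf13b in myeloid cells. The comparison therefore asks, for these genes, whether spleen transcripts of the ligands and receptors differ in TLR7-stimulated mice that lack interferon-γ signalling.

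Values are fragment counts per locus scaled between libraries. The libraries held between 4394283 and 5960889 fragments in Sle1b.IFNγR-/- and between 5531789 and 6349836 in B6.Sle1b. One library stood apart. The median level of 29 ribosomal protein genes, relative to the mean of all libraries, was 0.899, 0.873 and 0.867 in Sle1b.IFNγR-/- replicates 1 to 3, against 2.66, 0.743 and 0.949 in B6.Sle1b replicates 1 to 3. The share of fragments at named loci also set that library apart, at 26.96%, against 17.52% and 19.95% in the other B6.Sle1b libraries and between 19.2% and 19.77% in Sle1b.IFNγR-/-, so most fragments lay outside the loci used here. Differences of the members, of their ratios and of the gene lists are therefore also given without B6.Sle1b replicate 1. List medians are also given without B6.Sle1b replicate 2, the library of lowest ribosomal level. The spleen label was borne out by its markers: the B cell gene Ms4a1 lay between 69.1 and 107 scaled counts in Sle1b.IFNγR-/- and between 59.2 and 176 in B6.Sle1b, the T cell gene Cd3e between 75.5 and 105 against between 70.7 and 110, and the red pulp macrophage gene Spic between 24.7 and 60.3 against between 15.0 and 46.9. Ifngr1, the ligand-binding receptor chain, had 43.7, 21.4 and 23.96 scaled counts in Sle1b.IFNγR-/-, against 81.5, 34.5 and 63.7 in B6.Sle1b, with overlapping groups. As a targeted gene can still be transcribed, this is no check of genotype.

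The receptor genes had the highest levels of the members, and BAFF was listed at 0 in 5 of the 6 libraries. Per kilobase of annotated exon, Tnfrsf13c averaged 32.1 ± 10.1 scaled counts in Sle1b.IFNγR-/- and 53.5 ± 32.5 in B6.Sle1b, and Tnfrsf13b 15.2 ± 3.84 and 21.2 ± 9.91 (SD, n = 3 each). The locus of Tnfsf13 averaged 6.41 ± 2.54 scaled counts per kilobase in Sle1b.IFNγR-/- and 7.32 ± 2.14 in B6.Sle1b (SD, n = 3 each). In all 6 libraries Tnfrsf13c was the highest of these per kilobase, Tnfrsf13b the next and the Tnfsf13 locus the lowest, although across libraries the ranges of Tnfrsf13c and Tnfrsf13b overlapped. Against 20291 named loci with a protein-coding gene and an annotated exonic length, the mean level per kilobase stood at percentile 97.7 for Tnfrsf13c, 89.3 for Tnfrsf13b, 61.1 for the Tnfsf13 locus and 5.5 for Tnfsf13b. How far such ranks follow transcript abundance was not tested. Before division by length, the housekeeping gene Gapdh averaged 27.6 scaled counts in Sle1b.IFNγR-/- and 64.3 in B6.Sle1b. Tnfrsf13c was higher, at 65.1 and 109, and the housekeeping gene Actb higher still, at 215 and 496. Lengths cover annotated exons only, although loci can also join assembled transcripts.

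**Figure D1:**
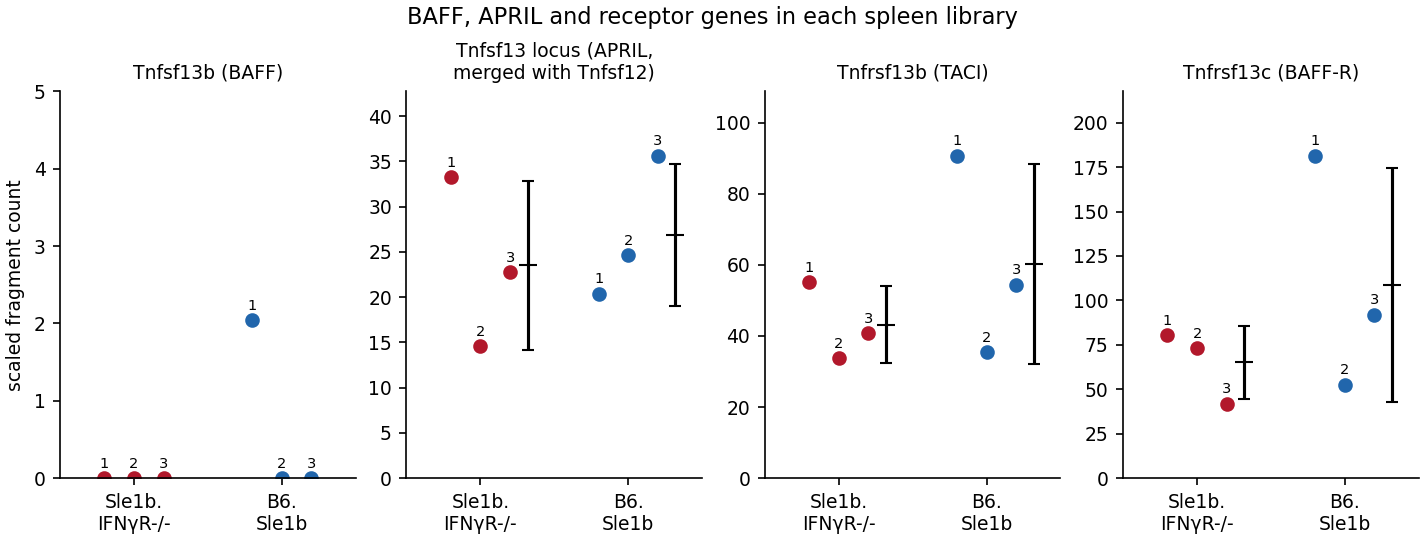
Scaled fragment counts of the 4 genes in each library, with Sle1b.IFNγR-/- in red and B6.Sle1b in blue; digits are replicate numbers, and black bars are the mean and SD of 3 libraries (left out for Tnfsf13b, where 5 of the 6 libraries are listed at 0). B6.Sle1b replicate 1 is the highest library for both receptors, at 90.7 and 181 scaled counts, and the lowest of its group for the Tnfsf13 locus, at 20.4.

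Among the ligands, Tnfsf13b, which encodes BAFF (chromosome 8, 10006467 to 10039072, GRCm38), was listed at 0 in all 3 Sle1b.IFNγR-/- libraries. In B6.Sle1b it was at 2.04 scaled counts in replicate 1, which is 2 fragments, and listed at 0 in replicates 2 and 3. No difference in BAFF transcripts could therefore be measured. A value of 0 is not taken as absence, because the housekeeping gene Hprt was also listed at 0 in B6.Sle1b replicate 2. Whether Tnfsf13b fragments were assigned to another locus was not tested. Such low values were uncommon among protein-coding loci: 1494 of 21430 (6.97%) were listed at 0 in at least 5 of the 6 libraries. RefSeq gives Tnfsf13b a pair of start sites. In the 250 bases before the second one lies a single match to the interferon-stimulated response element core (GAAA, any 2 bases and GAAA again, searched on both strands), with the letters GAAAGTGAAA beginning 16 bases before the start. Such a match occurred in 3.0% of 32851 RefSeq promoter windows of that length. The window before the first start site held none.

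Tnfsf13, which encodes APRIL (chromosome 11, 69682846 to 69685784, GRCm38), was not measured alone. Its locus also carries the names Tnfsf12, the gene of the neighbouring cytokine TWEAK, and Tnfsfm13, and joins 7 annotated and 4 assembled transcripts, so APRIL and TWEAK fragments cannot be told apart. The locus had 33.2, 14.6 and 22.8 scaled counts in Sle1b.IFNγR-/- replicates 1 to 3, against 20.4, 24.7 and 35.6 in B6.Sle1b replicates 1 to 3. The groups overlapped, and the highest and the lowest Sle1b.IFNγR-/- libraries differed by more than the group means of 23.5 ± 9.33 and 26.9 ± 7.86 (SD, n = 3 each). The log2 difference was -0.22 (SE 0.42, 95% interval from -1.12 to 0.68) on log2(value + 1), and the limma test gave a Benjamini-Hochberg adjusted p of 0.99976 over 19227 loci. Without B6.Sle1b replicate 1 the log2 difference was -0.39 (SE 0.46). The interval with all libraries spans 0.46-fold to 1.60-fold, so a change of moderate size in either direction was not detectable. Counting error alone was wide, as the locus held between 13 and 38 fragments per library. For the lowest library, Sle1b.IFNγR-/- replicate 2, the exact Poisson interval (95%, counting error only) ran from 6.92 to 22.2 fragments.

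The receptor gene Tnfrsf13b, which encodes TACI (chromosome 11, 61126755 to 61149372, GRCm38), had 55.1, 33.7 and 40.7 scaled counts in Sle1b.IFNγR-/-, against 90.7, 35.3 and 54.4 in B6.Sle1b. The highest value was in B6.Sle1b replicate 1 and the groups overlapped. The means were 43.2 ± 10.9 in Sle1b.IFNγR-/- and 60.1 ± 28.1 in B6.Sle1b (SD, n = 3 each), a ratio of 0.718. The log2 difference was -0.39 (SE 0.38, 95% interval from -1.22 to 0.43; limma adjusted p = 0.99976). It was -0.05 without B6.Sle1b replicate 1 and -0.72 (SE 0.38; limma adjusted p = 0.604) without B6.Sle1b replicate 2, the library of lowest ribosomal level.

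Tnfrsf13c, which encodes BAFF-R (chromosome 15, 82221743 to 82224369, GRCm38), had 80.4, 73.0 and 41.9 scaled counts in Sle1b.IFNγR-/-, against 181, 52.6 and 91.9 in B6.Sle1b. B6.Sle1b replicate 1 was again the highest, and B6.Sle1b replicate 2 lay below 2 of the Sle1b.IFNγR-/- libraries. The means were 65.1 ± 20.4 in Sle1b.IFNγR-/- and 109 ± 66.0 in B6.Sle1b (SD, n = 3 each), a ratio of 0.600. The log2 difference was -0.60 (SE 0.42, 95% interval from -1.52 to 0.31; limma adjusted p = 0.99976). Without B6.Sle1b replicate 1 it was -0.15 (SE 0.34), without B6.Sle1b replicate 2 -1.03 (SE 0.37; limma adjusted p = 0.401) and without Sle1b.IFNγR-/- replicate 3 -0.32 (SE 0.47).

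Thus all 3 members that could be tested had lower means in Sle1b.IFNγR-/-, where 58.1% of the 19227 tested loci had a log2 difference below 0, and none of the 3 passed. Scaled to the ribosomal protein genes instead, 19.3% of loci were below 0 and the median of all loci was 0.38, with the Tnfsf13 locus at 0.23, Tnfrsf13b at 0.08 and Tnfrsf13c at -0.12. The share of all loci past an adjusted p of 0.05 was 0% (0 loci in limma), and 3.1% (596 loci) had an unadjusted p under 0.05, namely 2.08% lower and 1.02% higher in Sle1b.IFNγR-/-. None of the 3 members was among these, their unadjusted p being 0.605 for the Tnfsf13 locus, 0.320 for Tnfrsf13b and 0.177 for Tnfrsf13c in the same limma fit. The median log2 difference of all tested loci was -0.08, so relative to it the members stood at -0.14, -0.31 and -0.52. In bulk spleen, fewer B cells and less receptor RNA per B cell cannot be told apart.

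**Figure D2:**
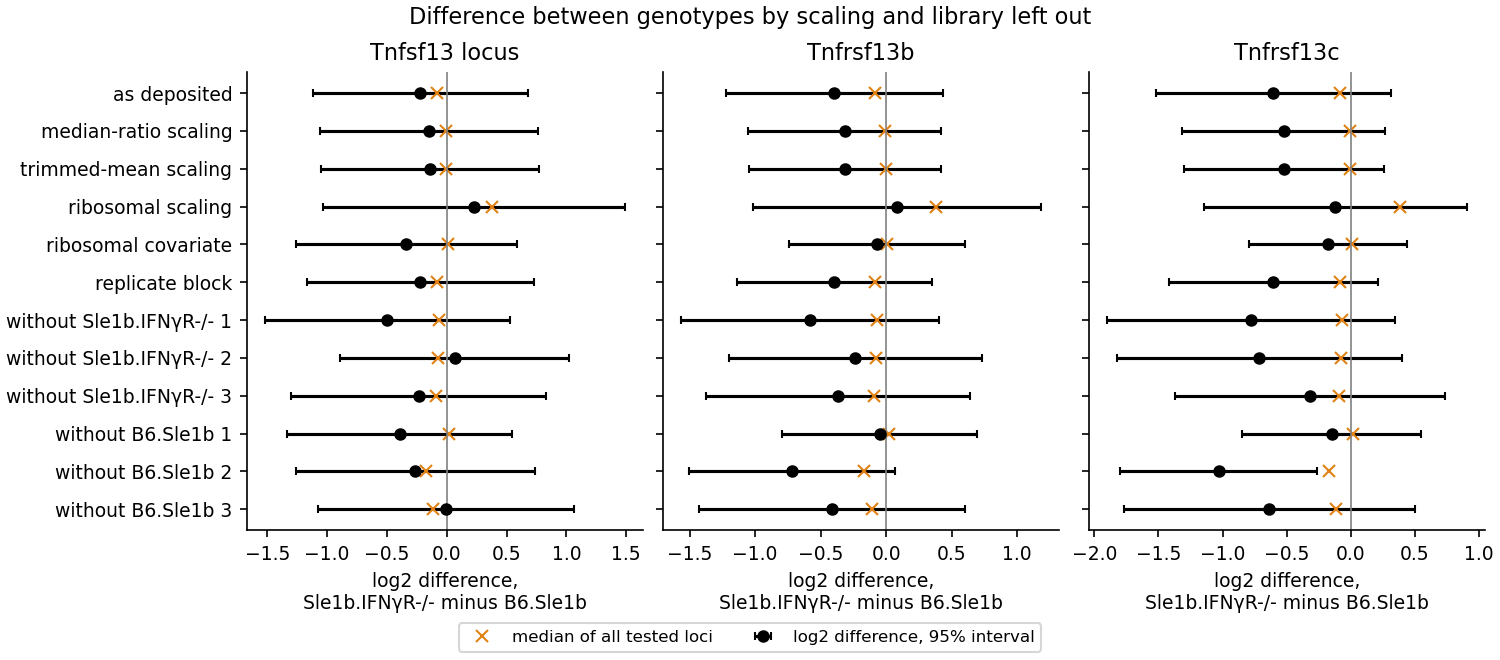
Log2 difference, Sle1b.IFNγR-/- minus B6.Sle1b, of the Tnfsf13 locus, Tnfrsf13b and Tnfrsf13c (points, with 95% limma intervals) under different scalings and with single libraries left out; orange crosses give the median of all tested loci in the same fit. The intervals include 0 except for Tnfrsf13c without B6.Sle1b replicate 2 (-1.80 to -0.26), whose adjusted p was 0.401.

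The promoters of the receptor genes are printed because the levels of these genes had the highest correlation among the members, given after them. The sequences are the 250 bases before the RefSeq start site on GRCm38.p6, read 5′ to 3′ on the gene's strand, and capitals mark matches to a κB core (GGG, any 5 bases and CC, searched on both strands).
Tnfrsf13b, chr11:61126505-61126754, plus strand: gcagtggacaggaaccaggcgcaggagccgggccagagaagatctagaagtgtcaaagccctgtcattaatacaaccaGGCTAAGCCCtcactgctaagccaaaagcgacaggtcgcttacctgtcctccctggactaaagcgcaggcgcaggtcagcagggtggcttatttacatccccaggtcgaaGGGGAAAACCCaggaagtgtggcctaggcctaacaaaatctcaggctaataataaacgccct
Tnfrsf13c, chr15:82224381-82224630, minus strand: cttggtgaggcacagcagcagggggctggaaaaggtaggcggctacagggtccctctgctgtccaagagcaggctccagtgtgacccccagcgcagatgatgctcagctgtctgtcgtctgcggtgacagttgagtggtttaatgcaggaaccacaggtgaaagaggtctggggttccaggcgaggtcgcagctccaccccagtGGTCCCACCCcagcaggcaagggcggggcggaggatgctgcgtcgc
Tnfrsf13b held 2 such stretches, the second made of overlapping matches, and Tnfrsf13c held 1. A κB core was present in 45.8% of all promoter windows, so its presence does not set these genes apart. No match to the interferon-γ-activated site (TTCNNNGAA, found in 7.0% of windows; it reads the same on both strands) was present in any of the 5 windows of the 4 genes.

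Across the 6 libraries the level of Tnfrsf13c was related to that of Tnfrsf13b with Pearson's r of 0.864 (exact permutation p = 0.0611, adjusted p = 0.122 over 6 relations) and Spearman's rho of 0.714 (exact permutation p = 0.136, adjusted p = 0.272). Without the libraries farthest from the median of Tnfrsf13c, Sle1b.IFNγR-/- replicate 3 and B6.Sle1b replicate 1, r was 0.747 over 4 libraries. Both receptors also followed the ribosomal level of a library. For Tnfrsf13b, r with that level was 0.883 (exact permutation p = 0.025, adjusted p = 0.122) and rho 0.771 (p = 0.103, adjusted p = 0.272, by the same test). For Tnfrsf13c, r was 0.873 (exact permutation p = 0.05, adjusted p = 0.122) and rho 0.943 (p = 0.0167, adjusted p = 0.1, by the same test). Without B6.Sle1b replicates 1 and 2 these r were 0.765 and 0.749 over 4 libraries. None passed after adjustment. The Tnfsf13 locus had r of -0.197 with the ribosomal level, 0.269 with Tnfrsf13b and -0.010 with Tnfrsf13c (exact permutation p = 0.614, 0.603 and 0.953; adjusted p = 0.737, 0.737 and 0.953), with rho of 0.086, 0.314 and 0.143 (p = 0.919, 0.564 and 0.803; adjusted p = 0.919, 0.846 and 0.919, by the same test). With B6.Sle1b replicates 1 and 2 left out, r of the Tnfsf13 locus with the ribosomal level became 0.765 over 4 libraries. With Sle1b.IFNγR-/- replicate 2 and B6.Sle1b replicate 3 left out, its r became -0.263 with Tnfrsf13b and -0.249 with Tnfrsf13c, also over 4 libraries.

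Within each library 5 ratios were formed, which do not change with the scaling between libraries apart from the pseudocount, and were compared by two-sided exact permutation tests, in which 3 against 3 libraries cannot give a p below 0.1. The log2 ratio of Tnfrsf13c to the median of 12 B cell marker genes was 0.53, -0.04 and -0.71 in Sle1b.IFNγR-/- replicates 1 to 3, against 0.69, 0.34 and 0.40 in B6.Sle1b. The B6.Sle1b libraries lay close together on this measure, B6.Sle1b replicate 1 included. Sle1b.IFNγR-/- replicate 1 lay within their range, and Sle1b.IFNγR-/- replicates 2 and 3 lay below it. The difference was -0.55 (exact permutation p = 0.3, adjusted p = 1 over the 5 ratios), or -0.44 without B6.Sle1b replicate 1. For Tnfrsf13b over the same markers the log2 ratios were -0.01, -1.13 and -0.75 in Sle1b.IFNγR-/-, against -0.30, -0.22 and -0.35 in B6.Sle1b, a difference of -0.34 (exact permutation p = 0.4, adjusted p = 1), or -0.35 without B6.Sle1b replicate 1. On this measure 1 Sle1b.IFNγR-/- library lay above all of B6.Sle1b and the other 2 below. Both receptors thus had lower mean ratios to B cell markers in Sle1b.IFNγR-/-, without passing a test.

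The groups overlapped in the balance between the receptors and between ligand and receptor. The log2 ratio of Tnfrsf13b to Tnfrsf13c was -0.54, -1.09 and -0.04 in Sle1b.IFNγR-/- and -0.99, -0.56 and -0.75 in B6.Sle1b, a difference of 0.21 (exact permutation p = 0.6, adjusted p = 1), or 0.10 without B6.Sle1b replicate 1. The log2 ratio of the Tnfsf13 locus to Tnfrsf13b was -0.71, -1.15 and -0.81 in Sle1b.IFNγR-/- and -2.10, -0.50 and -0.60 in B6.Sle1b, a difference of 0.17 (exact permutation p = 1, adjusted p = 1) that was -0.34 without B6.Sle1b replicate 1. Over 11 monocyte and macrophage markers, genes of cells that release APRIL, the log2 ratio of the Tnfsf13 locus was -0.64, -1.24 and -0.93 in Sle1b.IFNγR-/- and -2.19, -0.05 and -0.33 in B6.Sle1b. That difference was -0.08 (exact permutation p = 1, adjusted p = 1), or -0.75 without B6.Sle1b replicate 1, the library with the lowest ratio.

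**Figure D3:**
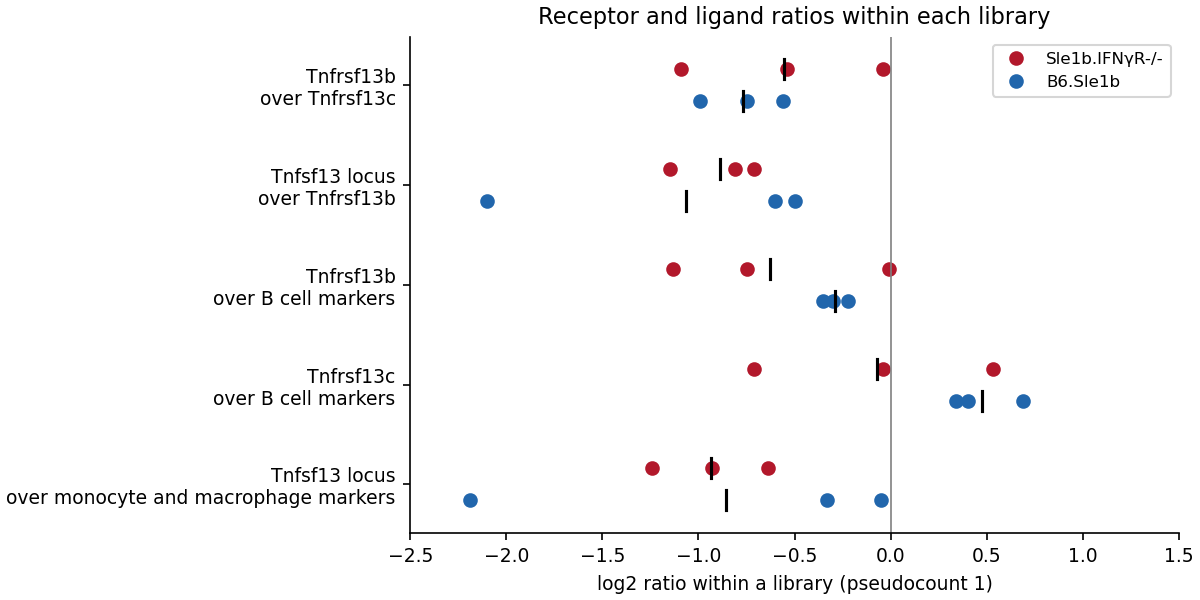
Log2 ratios of receptor and ligand genes within each library (pseudocount 1), with Sle1b.IFNγR-/- in red above B6.Sle1b in blue; black ticks are group means of 3 libraries. For Tnfrsf13c over B cell markers the B6.Sle1b libraries lie between 0.34 and 0.69 and the Sle1b.IFNγR-/- libraries between -0.71 and 0.53.

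The remaining receptor BCMA and the binding partner syndecan-1 were too low to test. Tnfrsf17, which encodes BCMA (chromosome 16, 11313812 to 11320074), was listed at 0 in all 6 libraries, as were 4.19% of named protein-coding loci. Some other genes of antibody-forming cells were measured in every library, but Mzb1 and Fkbp11 were also listed at 0 in some libraries. Whether Tnfrsf17 fragments were assigned to another locus was not tested. Sdc1, which encodes syndecan-1, a proteoglycan of plasma cells that binds APRIL, had 2.62, 3.37 and 4.79 scaled counts in Sle1b.IFNγR-/-, against 26.5, 4.93 and 7.50 in B6.Sle1b. The groups did not overlap, but the Sle1b.IFNγR-/- values rest on 3, 3 and 4 fragments and those of B6.Sle1b on 26, 6 and 8. The mean of 8.29 was under the minimum of 10 for the test. Of the loci that reached this minimum, 5.19% were lower in Sle1b.IFNγR-/- without overlap.

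Genes that relay the receptor signal showed no call in either direction. Of 12 genes for TRAF adaptors, cIAP ligases and the noncanonical NF-κB arm, 9 could be tested: 8 had a log2 difference below 0 and 1 above, with a median of -0.25 (0.23 when scaled to the ribosomal protein genes), and 0 passed. In the ribosomal scaling, also given for the lists below, the median of all tested loci was 0.38. Without B6.Sle1b replicate 1 the median was -0.12 and 6 of 9 were below 0. The median was -0.40 without B6.Sle1b replicate 2. Traf1, an adaptor induced by NF-κB, had 22.7, 14.6 and 23.96 scaled counts in Sle1b.IFNγR-/-, against 42.8, 22.2 and 29.1 in B6.Sle1b (log2 difference -0.57, SE 0.40, or -0.33 without B6.Sle1b replicate 1). Map3k14, which encodes NIK, had 27.1, 34.8 and 23.96 in Sle1b.IFNγR-/-, against 45.9, 23.0 and 46.9 in B6.Sle1b (log2 difference -0.37, SE 0.38, or -0.21 without B6.Sle1b replicate 1). Both groups overlapped in each. Birc2, which encodes the ligase cIAP1, was the only one of the 9 without overlap, at 94.4, 77.5 and 106.6 in Sle1b.IFNγR-/- against 108.0, 106.9 and 115.3 in B6.Sle1b, and was named after its values were seen. The nearest libraries of the groups differed by less than the value of 1 fragment. Loci without overlap and lower in Sle1b.IFNγR-/- made up 5.19% of all loci tested. Birc3, which encodes cIAP2, was the member above 0 (0.11, SE 0.77, or 1.05 without B6.Sle1b replicate 1) and had 69.1, 48.3 and 44.3 in Sle1b.IFNγR-/-, against 183, 8.22 and 72.2 in B6.Sle1b, so that the B6.Sle1b libraries lay on both sides. Nfkb2, which encodes the p100 precursor, and Relb, its partner, were under a mean of 10.

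In the canonical NF-κB arm, 6 of 8 genes were tested, 2 below 0 and 4 above, with a median of 0.06 (0.53 when scaled to the ribosomal protein genes), or 0.25 without B6.Sle1b replicate 1, and 0 passed. The median was -0.11 without B6.Sle1b replicate 2. Nfkb1, which encodes p105 and p50, had 53.3, 85.4 and 58.7 scaled counts in Sle1b.IFNγR-/-, against 199.7, 51.0 and 69.4 in B6.Sle1b (log2 difference -0.46, SE 0.44, or 0.11 without B6.Sle1b replicate 1). Tnfaip3, which encodes the inhibitor A20, differed by -0.06 (SE 0.32). Ikbkb, the IKKβ kinase gene, differed by 0.23 (SE 0.28) and Rel, the c-Rel gene of lymphocytes, by 0.17 (SE 0.32), or by 0.40 and 0.47 without B6.Sle1b replicate 1.

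Genes known to respond to BAFF or to mark the B cells that depend on it differed in both directions. Of 12, 10 were tested, 6 below 0 and 4 above, with a median of -0.10 (0.15 without B6.Sle1b replicate 1 and 0.39 when scaled to the ribosomal protein genes), and 0 passed. The median was -0.30 without B6.Sle1b replicate 2. The locus of Bcl2a1b, a survival gene of the A1 family, also carries the names Mthfs, a gene of folate metabolism, and Gm29094. It had 16.6, 26.97 and 27.6 scaled counts in Sle1b.IFNγR-/-, against 55.0, 39.5 and 53.4 in B6.Sle1b (log2 difference -1.04, SE 0.35; limma adjusted p = 0.99976). The groups did not overlap, where 5.19% of all loci tested were lower in Sle1b.IFNγR-/- without overlap. Without B6.Sle1b replicate 1 the log2 difference was -0.96. The value is uncertain for the single gene, because Mthfs fragments cannot be told apart and the near-identical copies Bcl2a1a and Bcl2a1d can share reads with it. Both copies were under a mean of 10. Bcl2 had 87.4, 94.4 and 62.3 in Sle1b.IFNγR-/-, against 183, 74.0 and 124 in B6.Sle1b, with overlap (log2 difference -0.56, SE 0.35, or -0.25 without B6.Sle1b replicate 1).

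In the other direction, Cr2, which encodes the complement receptor CD21 of follicular and marginal zone B cells, had 116, 98.9 and 82.7 scaled counts in Sle1b.IFNγR-/-, against 66.2, 30.4 and 75.0 in B6.Sle1b. The groups did not overlap (log2 difference 0.87, SE 0.36, or 1.02 without B6.Sle1b replicate 1; limma adjusted p = 0.99976), where 3.51% of all loci were higher in Sle1b.IFNγR-/- without overlap. Pim2, a survival kinase gene, had 18.4, 15.7 and 21.6 in Sle1b.IFNγR-/-, against 20.4, 9.87 and 7.50 in B6.Sle1b (log2 difference 0.63, SE 0.51, or 1.01 without B6.Sle1b replicate 1). Fcer2a, which encodes CD23 of follicular B cells, differed by -0.03 (SE 0.28), or by 0.10 without B6.Sle1b replicate 1.

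Genes of the interferon-γ signal itself were mostly below 0: of 11 listed 7 were tested, 6 below 0 and 1 above, with a median of -0.43 (-0.19 without B6.Sle1b replicate 1 and 0.06 when scaled to the ribosomal protein genes), and 0 passed. The median was -0.84 without B6.Sle1b replicate 2. Ifngr1 differed by -0.98 (SE 0.41), or by -0.72 without B6.Sle1b replicate 1. Jak2, a kinase of the receptor, was the member above 0 (0.20, SE 0.79, or 1.12 without B6.Sle1b replicate 1), and its B6.Sle1b libraries ran from 4.93 to 117. Ifngr2, the second receptor chain, had 5.25, 10.1 and 4.79 in Sle1b.IFNγR-/-, against 13.2, 12.3 and 7.50 in B6.Sle1b, and was under a mean of 10.

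For markers of the cells that carry the receptors and release the ligands, list medians changed when single B6.Sle1b libraries were left out. They rose without B6.Sle1b replicate 1 and fell without B6.Sle1b replicate 2. In the latter case the median was -0.63 for B cells, -0.83 for monocytes and macrophages and -0.45 for dendritic cells. It was -0.37 for neutrophils and -0.86 for stromal cells. The part of these cells in the values above was not tested. The summed level of 12 B cell markers lay between 1155 and 1241 scaled counts in Sle1b.IFNγR-/- and between 984 and 2368 in B6.Sle1b. Of these markers 10 of 12 were below 0 (median -0.23), but 4 of 12 were without B6.Sle1b replicate 1 (median 0.17). The 12 monocyte and macrophage markers summed to between 506 and 591 in Sle1b.IFNγR-/- and between 365 and 1677 in B6.Sle1b, and 9 of 11 tested were below 0 (median -0.30, or 0.13 without that library). For dendritic cells the sums lay between 255 and 264 against between 229 and 382 (5 of 7 below 0, median -0.14), for neutrophils between 250.1 and 303 against between 271 and 506 (5 of 7, median -0.14) and for stromal cells between 111 and 150 against between 89.6 and 242.5 (4 of 5, median -0.26). Without B6.Sle1b replicate 1 these last 3 medians were 0.01, 0.04 and -0.04.

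Scaled to the ribosomal protein genes, the 5 medians from B cells to stromal cells were 0.25, 0.19, 0.34, 0.34 and 0.22 in the same order. In that scaling the median of all tested loci was 0.38, so these 5 lay below it. Plasma cell markers stood lowest of these lists, as all 6 tested were below 0, with a median of -1.32, also without B6.Sle1b replicate 1 (median -0.55) and when scaled to the ribosomal protein genes (median -0.84). Their sums lay between 167 and 192 in Sle1b.IFNγR-/- and between 209.6 and 1081 in B6.Sle1b. None of the tested markers of these cell types passed, and among the plasma cell markers Tnfrsf17 was at 0 in every library. T cell markers had a median of -0.18 (5 of 8 below 0), or -0.03 without B6.Sle1b replicate 1, and erythroid markers of 0.19 (2 of 8 below 0), with an erythroid median of 1.15 without B6.Sle1b replicate 1. With B6.Sle1b replicate 2 left out instead, the medians were -1.84 for plasma cell, -0.24 for T cell and -0.54 for erythroid markers.

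**Figure D4:**
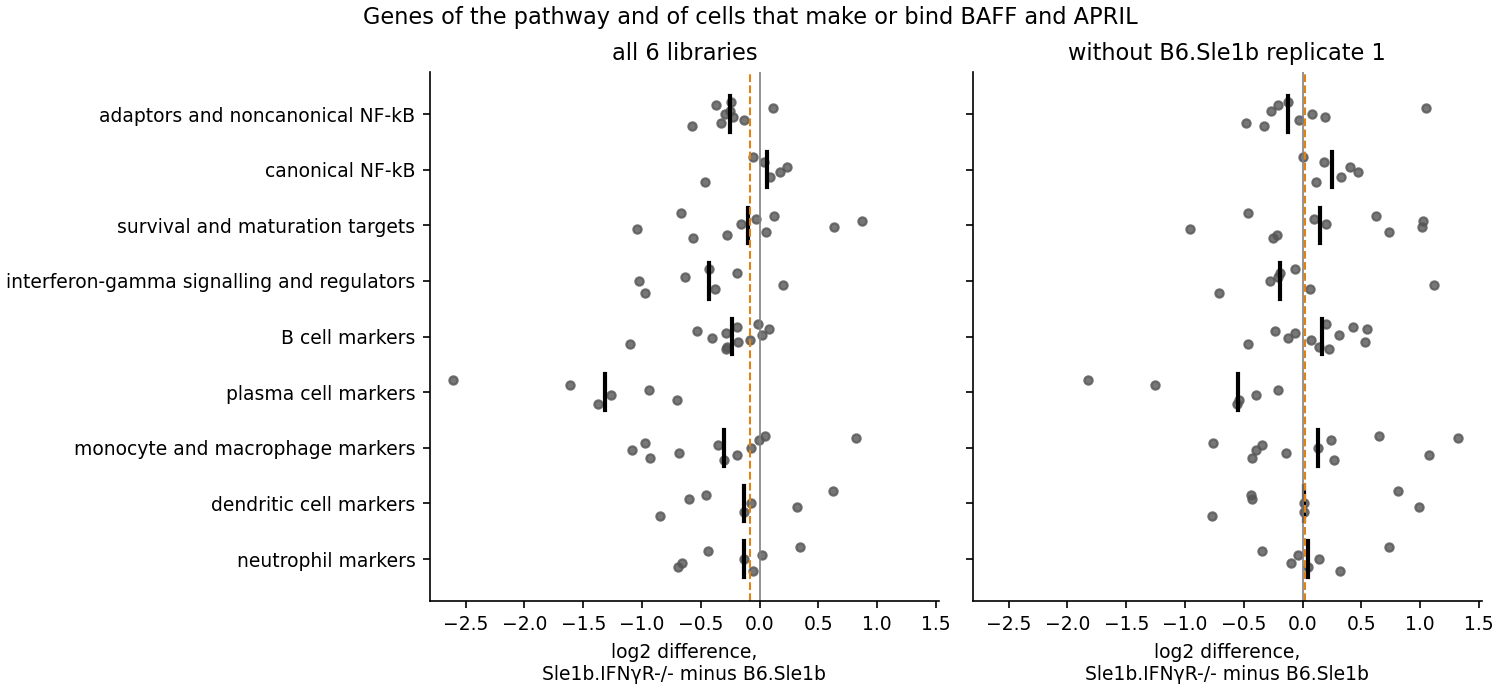
Log2 difference, Sle1b.IFNγR-/- minus B6.Sle1b, of each tested gene (points) in lists of the pathway and of cells that release or bind BAFF and APRIL, with all 6 libraries (left) and without B6.Sle1b replicate 1 (right); black ticks are list medians and the dashed line is the median of all tested loci. The B cell marker median is -0.23 with and 0.17 without that library, and the plasma cell marker median -1.32 and -0.55. Without B6.Sle1b replicate 2, which is not drawn, these medians were -0.63 and -1.84.

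The genes whose pattern was most like each member were found by Pearson's r of log2 levels over the 6 libraries, as a description. For Tnfrsf13c these included Gtf2a1 (r = 0.998), a general transcription factor gene, and Heatr1 (0.994), a gene of ribosome production. For Tnfrsf13b they were Diap2 (0.997), a formin gene, the κ variable segment Igkv5-39 (0.996) and Ccser2 (0.993). For the Tnfsf13 locus they were Aim1l (0.996), Gspt2 (0.993), a translation termination factor gene, and Fpgt (0.982). These were the highest of few: r was above 0.95 for 188 of 19226 loci with Tnfrsf13c, 165 with Tnfrsf13b and 24 with the Tnfsf13 locus. Igkv5-39 had 91.7 scaled counts in B6.Sle1b replicate 1 and was listed at 0 in replicate 2 of each genotype. It had 5.25 and 1.2 in Sle1b.IFNγR-/- replicates 1 and 3, and 6.56 in B6.Sle1b replicate 3. How far its r rests on B6.Sle1b replicate 1 was not tested.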

How the data were processed

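Spleen RNA (integrity number over 7) was amplified to cDNA with the NuGEN Ovation V2 kit, per the labels' protocols. The submitters' processing notes name Cufflinks 2.2.1, TopHat2 2.0.9, CASAVA and GRCm38. Strand and multi-mapping settings were not given in the sources used. The deposited signal is a fragment count per locus, scaled by quartile by the authors according to the name it was deposited under. The 1530481 rows were collapsed to 426574 loci, 44794 with a gene name. The 24 other columns of per-sample values were not used. In each library 99.8% of positive values were whole multiples (within 0.01) of 1 step, taken as the most frequent low value, from which fragment numbers were estimated. The smallest values lay far below 1 step, so whole reads were not recovered from them, the planned count tests were not run, and fragment numbers and Poisson intervals rest on the estimated step.

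The 19227 named loci whose mean reached 10 were tested on log2(value + 1), a scale that understates changes of low genes, with limma 3.58.1 (intensity trend, genotype as the only term) in R 4.3.3 and Benjamini-Hochberg adjustment at 0.05. The procedure was tested on simulated data. Ratios and correlations used scipy 1.17.1 in python 3.11.15. Exonic lengths and coordinates came from GENCODE mouse release 21, and promoters from RefSeq on GRCm38.p6. The members and gene lists were chosen with earlier results of these data known. Named are the 4 members, Tnfrsf17, the receptor chains, the 2 genes of smallest p per direction in each pathway list, and the 3 genes most like each member, skipping predicted genes, pseudogenes and small RNAs; some genes that this rule names are not reported here. Camlg and Irf8 matched no locus name and are not analysed here. Alternatives were other scalings, filters and pseudocounts, robust limma, a replicate block, a ribosomal covariate and leaving out each library.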

Additional observations from a re-analysis of the deposited data

How the results depend on the processing

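With 3 libraries a group and between 13 and 178 fragments per library at the tested members, depth and the spread within B6.Sle1b limit what can be seen. No alternative brought a member past an adjusted p of 0.05. The limma adjusted p over all alternatives ran from 0.401 to 0.99984 for Tnfrsf13c, from 0.604 to 0.99984 for Tnfrsf13b and from 0.917 to 0.99984 for the Tnfsf13 locus. The count of loci past the threshold was 0, and became 7 with the ribosomal covariate and 2 when scaled to the ribosomal protein genes, and lay between 0 and 5 with single libraries left out (5 without B6.Sle1b replicate 1 or replicate 2). The cause was not tested. Scaling to the ribosomal protein genes moved the median of all loci to 0.38 and turned the Tnfsf13 locus to 0.23 and Tnfrsf13b to 0.08, while Tnfrsf13c stayed at -0.12. Relative to that median all 3 remained lower. With single libraries left out, the log2 difference lay between -1.03 and -0.15 for Tnfrsf13c, between -0.72 and -0.05 for Tnfrsf13b and between -0.50 and 0.07 for the Tnfsf13 locus, which turned without Sle1b.IFNγR-/- replicate 2. The ratio of Tnfrsf13b to Tnfrsf13c lay between -0.05 and 0.48, that of the Tnfsf13 locus to Tnfrsf13b between -0.34 and 0.46 and to monocyte and macrophage markers between -0.75 and 0.32 (0.07, 0.32 and 0.18 without Sle1b.IFNγR-/- replicate 2, B6.Sle1b replicate 2 or replicate 3). The ratios of Tnfrsf13b and Tnfrsf13c to B cell markers kept their sign, between -0.65 and -0.09 and between -0.85 and -0.23.

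Same-numbered libraries did not deviate together over the tested loci (r of 0.012, -0.027 and -0.011). The labels give them only a shared replicate number, and whether they shared a batch was not tested. With a replicate block the count of calls stayed 0 and the log2 difference of Tnfrsf13c was -0.60 (SE 0.38). No fold is given for Tnfsf13b under any alternative, because it held 2 fragments in all, although the fit without a low-value filter included it. The Tnfsf13 locus has no value with a minimum mean of 50. The count tests were not run.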
